A study of Mus musculus with 60 samples.

Results

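Dorsal column axotomy in the spinal cord (DCA) was compared with laminectomy alone (Lam), which removes vertebral bone over the cord and leaves the axons intact, by the open chromatin of dorsal root ganglia. The comparison used every peak of the ATAC-seq list of each surgery, 164365 peaks for DCA and 158160 for Lam. These are 2 of the 16 peak lists of the series, and each pools 3 of its 60 samples. All ganglia were the sciatic ones, L4 to L6, of C57BL/6 mice of 6 to 8 weeks, taken 24 hours after surgery, with 1 mouse per ATAC sample and no genetic change named in the labels. Lam against Sham, a sciatic surgery without axotomy (153556 peaks), served as the background, since neither surgery cut an axon, and sciatic nerve axotomy (SNA, 174605 peaks) is given beside it. Each surgery is 1 pooled list, so no value below has a replicate error or a p-value, the difference between any 2 surgeries has no replicate check, and intervals are Wilson 95% intervals that cover counting error only.

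Dorsal root ganglia hold the cell bodies of sensory neurons, wrapped by satellite glia and reached by Schwann cells, vessels and macrophages. The axon of each neuron divides into a peripheral branch, which runs in the sciatic nerve and regrows after injury, and a central branch, which climbs the dorsal columns and largely fails to regrow. ATAC-seq marks DNA that a transposase can reach, which is mostly promoters and enhancers in use, and a peak is a stretch where the inserted reads pile up above the local background. In bulk ganglia, fewer cells of a type and less open chromatin per cell cannot be told apart. In DCA a promoter overlapped a peak in 16 of 18 sensory neuron genes, 12 of 14 satellite glia and Schwann cell genes and 9 of 12 vessel and fibroblast genes. The counts were 2 of 14 for macrophage and immune genes, 8 of 15 for liver, muscle and epithelial genes and 5 of 12 for genes of central neurons and glia. Over all protein-coding genes the share was 64.7%. The neuron and glia lists of the ganglion thus lay above that share. The macrophage list lay below the lists of other tissues, so open promoters did not sort all lists by resident cell type.

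Promoters were taken first, because each is a window of 300 bases, from 250 before to 50 after an annotated start (RefSeq, GRCm38.p6), so that gene length does not set the count. Of 21263 windows in 17492 genes, 12286 were open in both lists and 7133 in neither. A peak overlapped 1069 windows in DCA and not in Lam, 5.03% of those tested, and 775 windows in Lam and not in DCA, 3.64%. Between the control surgeries the shares were alike, with 4.89% open in Lam and not in Sham and 4.43% open in Sham and not in Lam. The gained windows were thus close to the background in number, and the lost ones somewhat fewer. With both lists limited to peaks of a −log10 q of 5 or more, 1232 windows were gained and 545 lost.

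Sequences are shown for 4 gained and 4 lost windows, to let a reader see the kind of promoter that appeared on a single side. Lig1 and Clcn4 had the strongest peak among the gained and the lost windows. The other 6 were chosen after their values were seen, as list members whose window lay over 1 kb from any peak of the other list. They are printed 5′ to 3′ on the strand of the gene, as RefSeq gives them for GRCm38.p6, with capitals for matches on either strand to the 5 motifs searched: AP-1 (TGANTCA), the cyclic AMP response element CRE (TGACGTCA), the E-box (CANNTG), part of the CTCF core (CCACNAGG) and the Sp/KLF box (GGGCGG). Matches that overlap run together, and a match is only a string of letters. The gained windows were Lig1 (DNA ligase 1) at chr7:13279015-13279314 on the + strand, Col1a2 (a chain of type I collagen) at chr6:4505368-4505667 on the + strand, Ecel1 (a neuronal endopeptidase induced by nerve damage) at chr1:87156307-87156606 on the − strand and Kat2b (the histone acetyltransferase PCAF) at chr17:53583876-53584175 on the + strand.
Lig1: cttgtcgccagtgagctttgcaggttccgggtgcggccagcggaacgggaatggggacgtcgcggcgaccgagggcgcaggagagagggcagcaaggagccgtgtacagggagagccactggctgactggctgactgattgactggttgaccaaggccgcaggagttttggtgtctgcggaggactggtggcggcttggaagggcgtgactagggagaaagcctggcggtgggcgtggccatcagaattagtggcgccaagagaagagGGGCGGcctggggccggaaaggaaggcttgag
Col1a2: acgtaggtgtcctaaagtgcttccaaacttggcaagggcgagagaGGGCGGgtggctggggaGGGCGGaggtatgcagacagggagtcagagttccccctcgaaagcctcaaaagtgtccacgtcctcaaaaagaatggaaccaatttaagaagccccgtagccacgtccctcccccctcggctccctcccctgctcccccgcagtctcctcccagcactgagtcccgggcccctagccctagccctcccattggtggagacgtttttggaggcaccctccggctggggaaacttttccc
Ecel1: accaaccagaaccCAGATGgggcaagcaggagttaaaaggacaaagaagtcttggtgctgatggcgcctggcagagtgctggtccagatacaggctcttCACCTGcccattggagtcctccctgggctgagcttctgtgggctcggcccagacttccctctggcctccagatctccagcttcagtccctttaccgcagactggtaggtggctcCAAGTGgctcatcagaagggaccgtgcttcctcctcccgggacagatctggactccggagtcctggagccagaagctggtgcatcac
Kat2b: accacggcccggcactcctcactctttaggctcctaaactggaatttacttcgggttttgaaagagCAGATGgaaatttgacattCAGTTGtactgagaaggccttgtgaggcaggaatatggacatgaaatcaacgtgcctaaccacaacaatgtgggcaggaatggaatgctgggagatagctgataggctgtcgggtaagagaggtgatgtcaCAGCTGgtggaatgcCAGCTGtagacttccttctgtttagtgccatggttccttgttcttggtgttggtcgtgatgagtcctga

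The lost windows were Clcn4 (an endosomal chloride and proton exchanger) at chr7:7299508-7299807 on the − strand, Cntnap5b (a neurexin-family adhesion protein) at chr1:99772151-99772450 on the + strand, Trpm8 (the cold-sensing channel) at chr1:88306485-88306784 on the + strand and Vip (vasoactive intestinal peptide, a neuropeptide induced by peripheral nerve injury) at chr10:5638968-5639267 on the + strand. The Vip window held none of the 5 motifs and is printed in lower case throughout.
Clcn4: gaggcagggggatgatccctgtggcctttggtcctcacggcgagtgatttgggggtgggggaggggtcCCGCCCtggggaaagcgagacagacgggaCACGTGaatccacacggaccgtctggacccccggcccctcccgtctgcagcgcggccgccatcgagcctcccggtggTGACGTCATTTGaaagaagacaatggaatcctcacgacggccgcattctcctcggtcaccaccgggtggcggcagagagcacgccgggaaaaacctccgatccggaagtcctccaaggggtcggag
Cntnap5b: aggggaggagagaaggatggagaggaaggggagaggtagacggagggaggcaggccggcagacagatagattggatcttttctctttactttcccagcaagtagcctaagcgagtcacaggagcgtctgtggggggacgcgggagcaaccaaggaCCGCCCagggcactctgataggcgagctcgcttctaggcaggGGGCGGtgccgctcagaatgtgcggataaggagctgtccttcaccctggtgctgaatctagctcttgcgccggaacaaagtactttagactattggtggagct
Trpm8: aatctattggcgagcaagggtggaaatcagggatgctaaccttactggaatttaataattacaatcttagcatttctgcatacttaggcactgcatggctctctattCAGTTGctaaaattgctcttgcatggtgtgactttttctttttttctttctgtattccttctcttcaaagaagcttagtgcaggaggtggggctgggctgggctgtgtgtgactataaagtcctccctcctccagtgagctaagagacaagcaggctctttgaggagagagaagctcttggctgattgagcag
Vip: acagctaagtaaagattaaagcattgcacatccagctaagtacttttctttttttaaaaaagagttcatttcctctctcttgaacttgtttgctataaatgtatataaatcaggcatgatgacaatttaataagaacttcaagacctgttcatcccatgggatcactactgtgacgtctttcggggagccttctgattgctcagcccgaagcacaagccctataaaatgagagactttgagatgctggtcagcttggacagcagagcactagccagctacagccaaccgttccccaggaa

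The strongest peaks at these windows were matters of peak edges. The Lig1 peak of DCA had a fold enrichment over local background of 9.31 (−log10 p 132.5, both the authors' values, as for every peak below), but only 30 of the 300 bases of the window lay in it, the nearest Lam peak was 84 bp away, and another Lig1 window was open in all 4 surgeries. A further Lig1 window, at chr7:13276925-13277224, was open in Lam alone, so the gene had a gained and a lost window. The Clcn4 peak of Lam (−log10 p 77.2, fold 6.44) took in 56 bases of its window, with a DCA peak 231 bp away. All of the 5 strongest gained windows (Lig1, Gm39270, 4933434E20Rik, Borcs8 and Parp16) lay 18 to 171 bp from a Lam peak, and all of the 5 strongest lost ones (Clcn4, Gm52009, Nat9, Cd82 and Dlg1) lay 18 to 231 bp from a DCA peak. Of the gained windows 601 (56.2%) had no Lam peak within 1 kb, and of the lost ones 430 (55.5%) had no DCA peak within 1 kb.

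Among such windows far from the other list, Col1a2 was open in Sham, SNA and DCA and not in Lam. Its DCA peak covered the whole window at a fold of 2.99 (−log10 p 12.9), and the nearest Lam peak was 22.6 kb away. Ecel1 was open in both axotomies and in neither control. Its DCA peak was weak (−log10 p 5.83, fold 1.98), and the nearest Lam peak lay 1884 bp away. Over the whole gene and 10 kb on either side the count went the other way. Ecel1 held 9 Lam and 5 DCA peaks there, with 4 in Sham and 5 in SNA. The second Kat2b window was open in DCA alone among the 4 surgeries (−log10 p 4.39, fold 1.96), while the first was open in all 4. Nrxn3, a presynaptic neurexin, and Robo3, a receptor of the Slit pathway, each had a window open in SNA and DCA and in neither control, with a −log10 p of 3.75 and 3.45. These peaks were among the weaker ones of their list, whose median −log10 p was 4.72.

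On the other side, Cntnap5b was open in Sham, SNA and Lam and not in DCA (−log10 p 11.4, fold 2.91), with the nearest DCA peak 54.7 kb away. Trpm8 had the same pattern (−log10 p 10.7), with a DCA peak 1024 bp from the window. Scn11a, the sodium channel Nav1.9 of pain-sensing neurons, was open in Sham and Lam and in neither axotomy (−log10 p 6.60, nearest DCA peak 1663 bp away). Vip was open in Lam alone (−log10 p 8.16, fold 2.52), with no DCA peak for 35.4 kb. The L1cam windows, of a cell adhesion molecule of growing axons, were open in SNA and Lam and not in Sham or DCA (−log10 p 4.28).

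Over all windows, 562 were open in DCA and in neither control, of which 242 were also open in SNA. In the other direction, 319 were open in both controls and not in DCA, and 102 of these were not open in SNA. The same counts for Lam were 456 windows open in Lam and in neither DCA nor Sham, and 507 open in DCA and Sham and not in Lam, so more windows were missing from Lam than from DCA. For scale, 63.8% of all windows were open in SNA, 58.7% of gained and 51.1% of lost ones. The share was 58.5% of windows open in Lam and not in Sham, and 59.2% of those open in Sham and not in Lam. Base composition and motifs were compared without a test. The median GC content was 54.0% and 54.7%, against 62.3% for windows open in both lists, and the median number of CpGs was 7 and 6 against 22. An AP-1 motif was present in 9.54% of gained windows (7.92 to 11.5%) and 8.65% of lost ones (6.86 to 10.8%), against 4.22% of those open in both, 11.2% of those open in neither and 6.99% of all windows of this length. The Sp/KLF box was present in 31.1% of gained, 31.4% of lost and 68.7% of windows open in both, against 46.2% of all. For the E-box the shares were 79.6% of gained (77.1 to 81.9%), 74.7% of lost (71.5 to 77.6%) and 69.0% of all windows, for the CTCF core part 5.43%, 6.32% and 5.06%, and for CRE 1.03%, 0.774% and 2.23%. Windows that differed between Lam and Sham were close to these values, with an AP-1 motif in 9.04% of those open in Lam and not in Sham and 8.06% of those open in Sham and not in Lam.

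Across the genome, 57.9% of DCA peaks (57.7 to 58.1%) overlapped no Lam peak by 1 bp or more, and 55.6% of Lam peaks (55.4 to 55.9%) overlapped no DCA peak. The background was larger: 59.4% of Lam peaks overlapped no Sham peak and 58.4% of Sham peaks overlapped no Lam peak. The share of peaks without a partner was higher among weaker peaks. Ranked by −log10 p within its list, none of the 5000 strongest DCA peaks lacked a Lam peak, which allows a share of up to 0.06% (3 counts), and 2 of the 5000 strongest Lam peaks lacked a DCA peak. The share of unmatched DCA peaks was 1.20% among the next 5000, 23.1% among the 10000 after those, 47.2% among the following 20000 and 73.1% in the last band. For Lam against Sham it was 2.30%, 26.5%, 49.6% and 74.4% in the same bands, above the DCA values at every step.

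**Figure D1:**
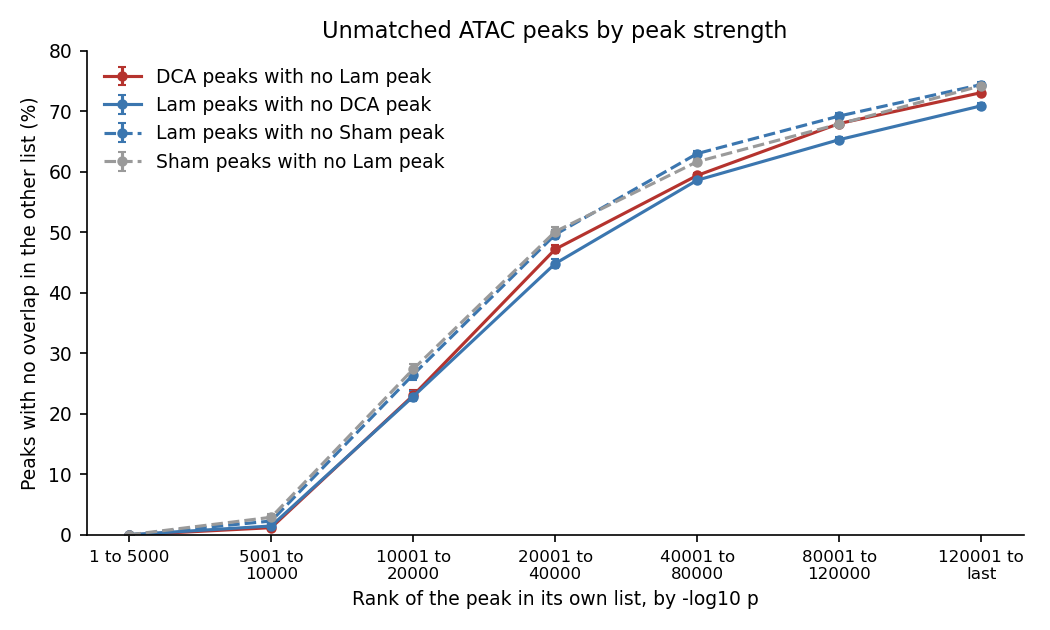
Share of ATAC peaks (y axis, percent, with Wilson 95% intervals) that overlapped no peak of the other list, by the rank of the peak in its own list (x axis, strongest at the left). Solid lines compare DCA with Lam and dashed lines Lam with Sham. All 4 lines start near 0 and reach 70.9 to 74.4% in the last band.

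Peak names carry a rank, and these ranks show that the deposited lists as used here are parts of longer ones. In DCA the highest rank was 520081 for 246455 lines, and in Lam 500018 for 233616. Among the 100 top ranks 41 were present in DCA and 44 in Lam, among ranks 1 to 5000 96.7% and 96.6%, and among ranks 100001 to 200000 61.6% and 55.7%. A region with no peak in a list can therefore be one whose ranked peak is missing from the list used here, and the share missing differed between the lists in the weak range.

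The 2 Lam peaks without a DCA partner among the strongest 5000 stood far apart from the rest. The peak at chr3:8245244-8245619 had a fold of 10.2 (−log10 p 141.6). It was also present in Sham and SNA, and the nearest DCA peak was 27.8 kb away. The peak at chr2:181931159-181931406 had a fold of 9.33 (−log10 p 106.5), was in neither Sham nor SNA, and lay 0.79 kb from a DCA peak. The next strongest unmatched Lam peak, inside Zfp697 (a zinc finger gene) at chr3:98417372-98418072, had a −log10 p of 19.7 and was present in Sham and SNA. The strongest unmatched DCA peaks were of that lower order. They lay in Pgap2, a gene of glycosylphosphatidylinositol anchor remodelling (chr7:102222740-102223439, −log10 p 19.1, fold 3.56, in Sham and SNA), 29.2 kb from Dpyd, the enzyme of pyrimidine breakdown (chr3:118532417-118532895, −log10 p 18.9, in Sham), 6.83 kb from 9230019H11Rik (chr10:3112803-3113011, −log10 p 18.3, in Sham), in Dbnl, a drebrin-like actin-binding protein (chr11:5795195-5795650, −log10 p 18.2, in SNA and not Sham), and in Tnfrsf21, the death receptor DR6 (chr17:43077106-43077355, −log10 p 17.9, in Sham and SNA, 0.25 kb from a Lam peak).

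Unmatched peaks of both surgeries were narrower and weaker than shared ones. DCA peaks without a Lam partner had a median width of 382 bp and a median fold of 1.91, against 604 bp and 2.07 for shared DCA peaks. A −log10 q of 5 or more was reached by 5.40% of the unmatched and 31.3% of the shared. Unmatched Lam peaks had a median width of 355 bp and a median fold of 1.87, and 3.08% of them reached that limit, against 25.8% of shared Lam peaks. Of unmatched peaks, 4.93% in DCA and 5.18% in Lam lay within 1 kb of a gene end, against 22.6% of shared peaks in either list. H3K9ac, a histone mark of active promoters, was found in its DCA list at 10.2% of DCA-only peaks and at 35.0% of shared ones. H3K27ac, a mark of active promoters and enhancers, was found in its DCA list at 3.92% and 20.2%. In these same 2 mark lists, Lam-only peaks gave 10.5% and 3.94%, so the acetylation lists of DCA did not favour the DCA-only over the Lam-only peaks. H3K27me3, a mark of repressed chromatin, was found in the DCA list at 6.55% of DCA-only, 6.22% of Lam-only and 3.75% of shared peaks. In that order its SNA list gave 14.3%, 13.5% and 11.3%, its Lam list 23.0%, 22.6% and 24.2%, and its Sham list 15.7%, 15.3% and 17.2%. Unmatched peaks thus lay above shared ones in the DCA and SNA lists of this mark and below them in the Lam and Sham lists. The Sham ATAC list held 23.9% of DCA-only and 22.6% of Lam-only peaks, and the SNA list 29.4% and 27.7%.

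**Figure D2:**
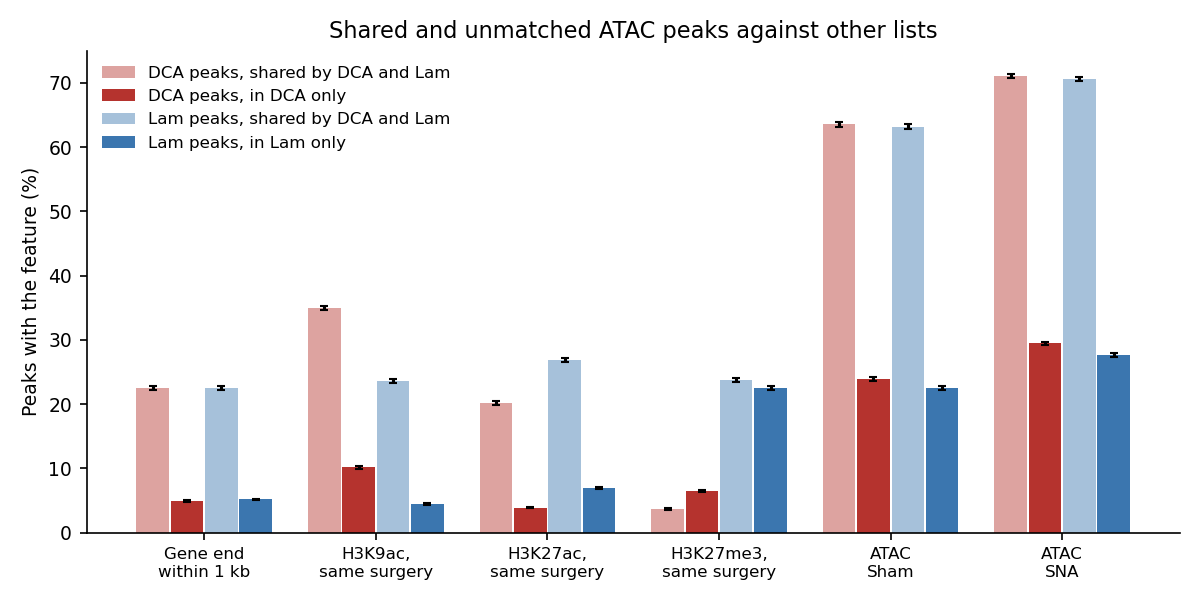
Share of ATAC peaks (y axis, percent, with Wilson 95% intervals) that lay within 1 kb of a gene end or overlapped a peak of another list (x axis). Pale bars are peaks shared by DCA and Lam, full bars peaks of a single list, red for DCA and blue for Lam. Unmatched peaks of both surgeries sat at 4.93 and 5.18% near gene ends, against 22.6% for shared ones.

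Among stronger peaks a smaller share lacked a partner, but the relative gap in size between the DCA and Lam lists was larger. A −log10 q of 5 or more was reached by 26768 DCA peaks, 20850 Lam peaks and 21157 Sham peaks. At that limit 19.2% of DCA peaks (18.7 to 19.7%) had no partner in the whole Lam list and 13.0% of Lam peaks had none in DCA, against 15.1% of Lam peaks with none in Sham and 15.4% of Sham peaks with none in Lam, so that DCA stood above the background here and below it over all peaks. Against both other lists, 11.5% of the DCA peaks (11.1 to 11.9%) had no partner in the whole Lam or Sham list, against 7.90% of Lam peaks with none in DCA or Sham and 8.79% of Sham peaks with none in Lam or DCA. SNA held 38.1% of those private DCA peaks and 35.6% of the private Lam peaks. With a fold of 3 or more the private peaks were 26 in DCA, 28 in Lam and 99 in Sham, so the DCA excess did not appear there. The level of background reads per peak, recovered from the deposited p-values and folds, was 18.4 in DCA, 17.2 in Lam and 16.2 in Sham. More reads give a lower p at the same fold, and the part of depth in the DCA count was not tested.

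The DCA list was larger than that of Lam by 6205 peaks, and 5693 of these lay between genes. Inside genes away from their ends the difference was 614 peaks, and within 1 kb of a gene end it was −102. From Sham to Lam the pattern was the reverse, with 6382 more peaks inside genes and a difference of −2774 between them. Among peaks with a −log10 q of 5 or more the pattern was another one: DCA exceeded Lam by 2690 peaks inside genes, 2234 between genes and 994 within 1 kb of a gene end, and Lam minus Sham gave 15, −386 and 64. In shares of all peaks, 39.0% of DCA peaks, 36.9% of Lam peaks and 39.8% of Sham peaks lay between genes. By chromosome, the log2 ratio of DCA over Lam was highest among the autosomes on chromosomes 3 and 13 (both 0.23), and lowest on chromosome 9 (−0.08). On those chromosomes the ratio of Lam over Sham was −0.21, −0.19 and 0.21. Both ratios use the Lam list. The X chromosome held only 433 to 554 peaks per list, with 966 genes, so X-linked genes enter the gene counts below with few peaks.

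Genes were then ranked by net peaks, the DCA peaks minus the Lam peaks in the gene and 10 kb on either side, over 21887 protein-coding genes. The median was 0, with 7683 genes higher in DCA, 7587 lower and 6617 equal. A net gain of 5 or more was found in 870 genes (3.97%) and a net loss of 5 or more in 937 (4.28%). Lam minus Sham gave 1538 gains (7.03%) and 601 losses (2.75%), so the control surgeries differed from each other in more genes than DCA and Lam did. The control-to-control difference leaned to gains and the DCA difference did not. Both statements hold for all peaks only: at a −log10 q of 5 or more, DCA minus Lam gave 79 gains and 2 losses, and Lam minus Sham 20 and 14. Windows of neighbouring genes can overlap, and such genes share peaks.

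Length set much of this. Of genes up to 50 kb, 1.2% had a gain of 5 or more in DCA and 2.36% a loss. Of genes from 50 to 200 kb the shares were 9.66% and 9.38%, and of the 990 genes over 200 kb they were 28.8% and 16.9%. Gains thus outnumbered losses in the long genes and the reverse held in the short ones. In Lam minus Sham the short genes gave 3.65% and 0.75%, those of 50 to 200 kb 16.4% and 5.54%, and those over 200 kb 27.3% and 25.8%. In SNA minus Sham the shares were 4.17% and 0.555%, 22.6% and 2.76%, and 38.6% and 16.2%.

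**Figure D3:**
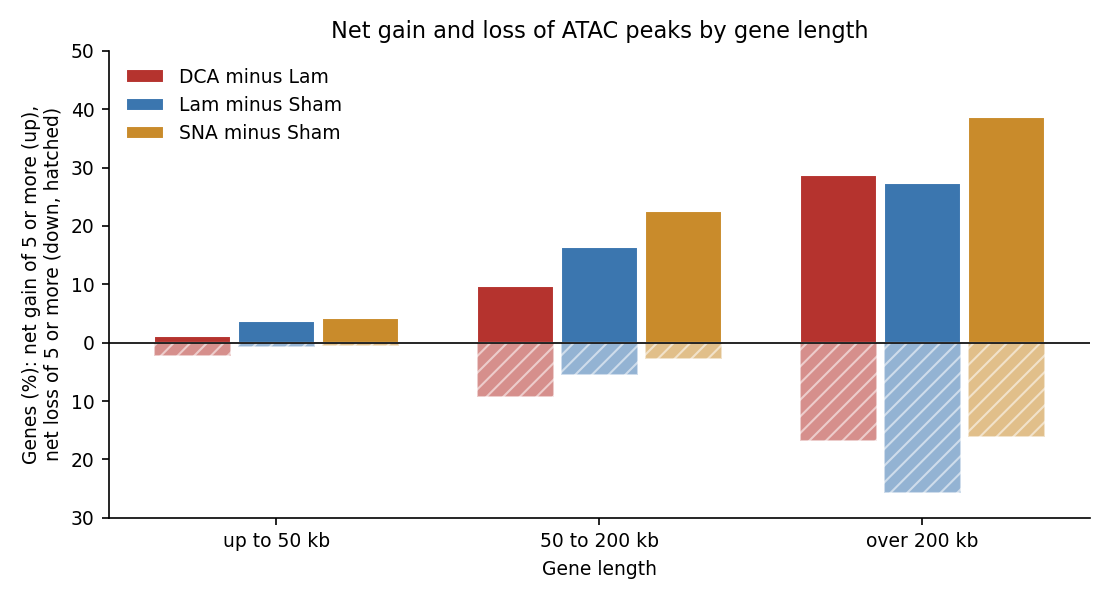
Share of protein-coding genes (y axis, percent) with a net gain (upward bars) or net loss (downward, hatched bars) of 5 or more ATAC peaks, by gene length (x axis), for DCA minus Lam, Lam minus Sham and SNA minus Sham. In DCA minus Lam, 28.8% of genes over 200 kb had a gain and 16.9% a loss, against 1.2% and 2.36% of genes up to 50 kb.

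The largest gains were in long genes, from 356 to 1302 kb. Values here and below are numbers of peaks in the order Sham, SNA, Lam, DCA. Elmo1 (chr13:20090507-20608353), an engulfment adaptor that activates the GTPase Rac, held 43, 52, 21 and 47 peaks, a net gain of 26 in which Lam was the list that stood apart. Esrrg (chr1:187608510-188214885), an orphan nuclear receptor of energy metabolism, held 49, 52, 46 and 70, and DCA stood above all 3 other lists. Slit3, a secreted ligand of Robo receptors, held 48, 67, 47 and 67, with both axotomies above both controls. Sdk1, a synaptic adhesion protein of the immunoglobulin family, followed the same order with 92, 121, 100 and 120.

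Plcb4, a phospholipase C of G protein signalling, held 22, 41, 14 and 36 peaks. Pdzd2, a PDZ domain protein, held 43, 45, 32 and 54. For Pde4d, a phosphodiesterase that breaks down cyclic AMP, the values were 50, 36, 28 and 48, and for Foxn3, a forkhead repressor, 59, 61, 40 and 59. Etl4 held 62, 81, 31 and 53. In Pde4d, Foxn3 and Etl4 the DCA value lay at or below that of Sham. Of these 9 genes, DCA exceeded both controls in 6, and Lam lay below Sham in 8. The genes were ranked on DCA minus Lam, so a high DCA and a low Lam value follow in part from the ranking.

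The largest losses were in genes of 394 to 1643 kb. Csmd1 (chr8:15892538-17535385), a transmembrane regulator of complement in the nervous system, held 191, 209, 198 and 164 peaks, and DCA was the lowest of the 4 lists. Cdh23 (chr10:60302748-60696513), a cadherin known from hair cells of the ear, held 62, 78, 66 and 46. Cacna1c, the pore of the L-type calcium channel Cav1.2, held 99, 105, 111 and 88, and Agap1, a GTPase-activating protein of membrane traffic, 78, 95, 89 and 67. Slc9a9, a sodium and proton exchanger of endosomes, held 74, 73, 92 and 64. In these 5 genes DCA lay below both controls.

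In the other 5 the DCA value lay above that of Sham and the Lam value higher still. Robo2 (chr16:73891976-75447443), a receptor for Slit ligands in axon guidance, held 128, 79, 164 and 138. SNA was the lowest list there and Lam the highest. Rbms3, an RNA-binding protein, held 101, 157, 165 and 137, and Erc2, a scaffold of the presynaptic active zone, 93, 159, 136 and 110. Tmem132d, a transmembrane protein, held 64, 77, 93 and 65, and Camta1, a calmodulin-binding transcription activator, 134, 161, 164 and 144. Lam exceeded Sham in all 10 of the genes with the largest losses. A ranking on DCA minus Lam favours genes with a high Lam value, so this count is not independent of it.

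Limiting both lists to a −log10 q of 5 or more left few peaks per gene and turned the direction in 6 of these 10. Csmd1 then had 15 DCA and 11 Lam peaks, Rbms3 11 and 9, Erc2 9 and 7, Cacna1c 9 and 5, Agap1 8 and 5, and Camta1 17 and 7. Over the 10 genes with the largest gains the strong peaks numbered 60 in DCA, 38 in Lam and 40 in Sham, and over those with the largest losses 96, 79 and 77. Summed over all genes they numbered 31073, 25791 and 25399, so an excess of DCA at this limit was not particular to these genes. Of the 79 genes with a gain of 5 or more at that limit, 17 were among the 870 found with all peaks, and neither of the 2 with a loss was among the 937.

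**Figure D4:**
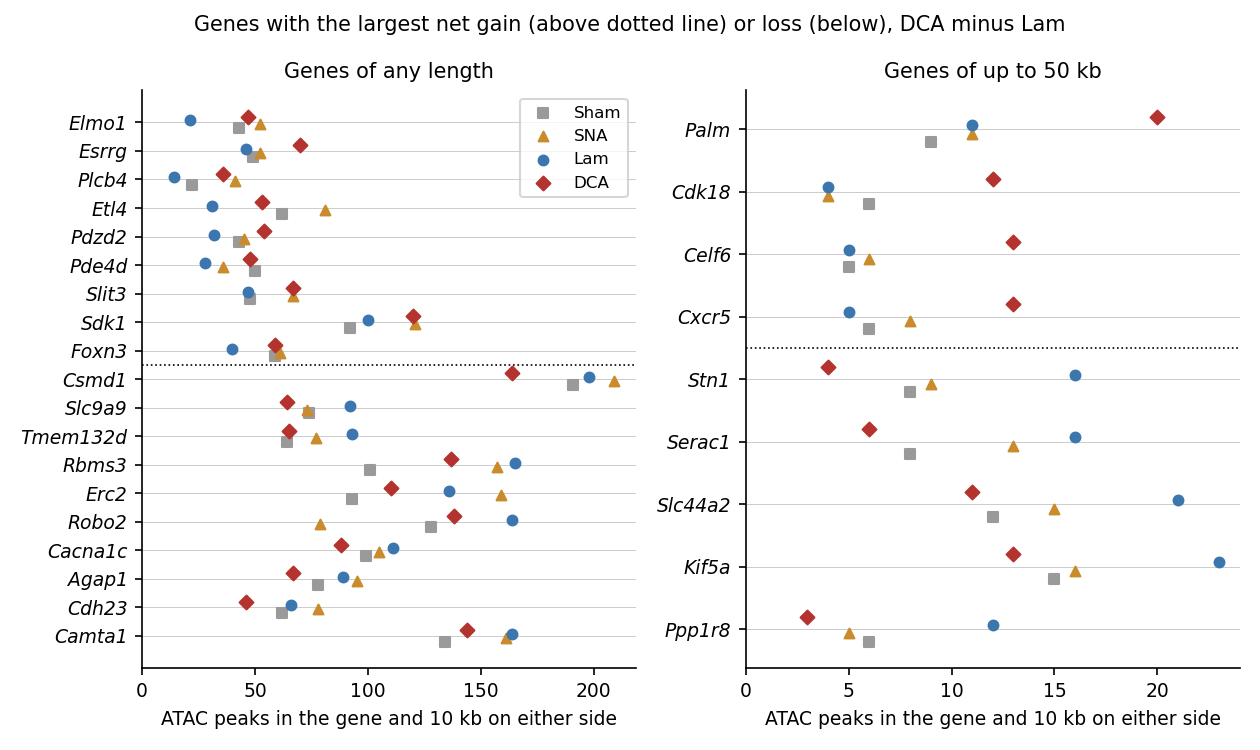
Number of ATAC peaks (x axis) in the gene and 10 kb on either side, for the genes with the largest net gain (above the dotted line) and loss (below it) of DCA against Lam. The left panel covers genes of any length, the right panel genes up to 50 kb. Among the long genes Lam is often the list apart from Sham, as in Elmo1 with 43 peaks in Sham and 21 in Lam. In the short ones DCA lies outside the range of both controls in all 9 shown. The ranking on DCA minus Lam favours extreme values in both of these lists.

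Among genes up to 50 kb, where the window holds few peaks, the largest gain was in Palm (chr10:79793572-79820915), the membrane protein paralemmin of growing neurites. It held 9, 11, 11 and 20 peaks, and 9 of the DCA peaks had no Lam partner. Cdk18, a cyclin-dependent kinase, held 6, 4, 4 and 12. Celf6, an RNA-binding splicing regulator, held 5, 6, 5 and 13, and Cxcr5, a chemokine receptor of lymphocytes, 6, 8, 5 and 13. In each of these 4 genes DCA lay above all 3 other lists, which a ranking on DCA minus Lam favours. At a −log10 q of 5 or more the net was 1 in Palm, Cdk18 and Celf6. It was 0 in Cxcr5, which had no such peak in DCA or Lam.

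The short genes with the largest losses had a high Lam value as well as a low DCA value, both of which the ranking favours. Stn1, a subunit of a telomere-capping complex, held 8, 9, 16 and 4 peaks, and none of the 4 DCA peaks lacked a Lam partner. Kif5a (chr10:127225695-127266348), the neuronal kinesin heavy chain that carries cargo along axons, held 15, 16, 23 and 13. Serac1, a mitochondrial lipid-remodelling protein, held 8, 13, 16 and 6, Slc44a2, a choline transporter-like protein, 12, 15, 21 and 11, and Ppp1r8, a nuclear regulator of protein phosphatase 1, 6, 5, 12 and 3. DCA lay below Sham in all 5, by 1 to 4 peaks, which is less than the distance from Sham to Lam. At a −log10 q of 5 or more the net turned to a gain of 1 in Serac1 and of 2 in Slc44a2.

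When DCA had to differ from both controls by 5 or more, 391 genes were higher (1.79%) and 150 lower (0.685%). Besides Esrrg, Sdk1 and Slit3, wide margins above were found in Bicc1, an RNA-binding protein (12, 17, 12 and 30 peaks), Dnm3, a dynamin of synapses (31, 47, 31 and 47), and Arntl, the circadian transcription factor Bmal1 (16, 26, 19 and 34). Wide margins below, besides Csmd1 and Cdh23, were found in Gabbr2, a subunit of the metabotropic GABA receptor (66, 63, 65 and 47), Fgf12, a regulator of voltage-gated sodium channels (66, 44, 65 and 48), and Kcnb2, a delayed rectifier potassium channel (35, 28, 41 and 22). Nrg1, the neuregulin that instructs Schwann cells, held 59, 52, 60 and 46. At a −log10 q of 5 or more, Sham, Lam and DCA held 7, 2 and 4 peaks in Gabbr2 and 8, 9 and 12 in Fgf12. They held 4, 5 and 6 in Kcnb2 and 7, 3 and 6 in Nrg1, so DCA exceeded Lam in each. In the same order the values were 5, 5 and 4 in Cdh23, 2, 1 and 1 in Bicc1, 3, 2 and 4 in Dnm3, and 2, 3 and 2 in Arntl.

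Gene lists were read against the shares for genes of like length. The 37 axon guidance genes, with a median length of 206 kb against 17.2 kb for all genes, had 9 gains (24.3%) and 5 losses (13.5%) of 5 or more, and a median net of 1, against 0 for all genes. Among the 19 of them over 200 kb, 7 gained (36.8%) and 3 lost (15.8%), beside 28.8% and 16.9% of all genes of that length. Of the ligands, Slit3 gained 20, Slit1 lost 7 (26, 45, 41 and 34), and Sema5a, a semaphorin, gained 11 (17, 10, 11 and 22). Efna5, an ephrin ligand, gained 10 (22, 19, 9 and 19).

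The receptors went both ways. Ephb1 gained 19 with 57, 73, 53 and 72 peaks, both axotomies above both controls. Its peaks with a −log10 q of 5 or more went the other way, with 1, 7, 6 and 1, a net of −5. Dcc, the netrin receptor, held 22, 8, 8 and 20, so DCA was like Sham and Lam like SNA. Epha6 held 41, 20, 23 and 32, Nrp2, a semaphorin co-receptor, 17, 17, 11 and 18, and Plxnc1 22, 29, 24 and 31. On the losing side beside Robo2 were Plxna4 (68, 81, 82 and 75), Ephb2 (30, 46, 44 and 38) and the netrin receptor Unc5d (30, 23, 27 and 21). Robo1, a further Slit receptor, held 71, 28, 38 and 43, with Sham far above the other 3.

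The 43 synaptic adhesion genes, with a median length of 584 kb, had 12 gains (27.9%) and 5 losses (11.6%), and a median net of 0. Among the 31 over 200 kb, 10 gained (32.3%) and 5 lost (16.1%), close to all genes of that length. Cntn4, a contactin, held 35, 25, 16 and 28 peaks, Dscam, which steers self-avoidance of neurites, 87, 83, 75 and 86, and Negr1, a growth regulator of the IgLON family, 40, 34, 26 and 35. Lsamp, of that family too, held 78, 44, 52 and 64. Its relative Opcml lost 17 (58, 88, 85 and 68), and Cadm2, a further adhesion molecule, lost 13 (26, 25, 32 and 19).

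**Figure D5:**
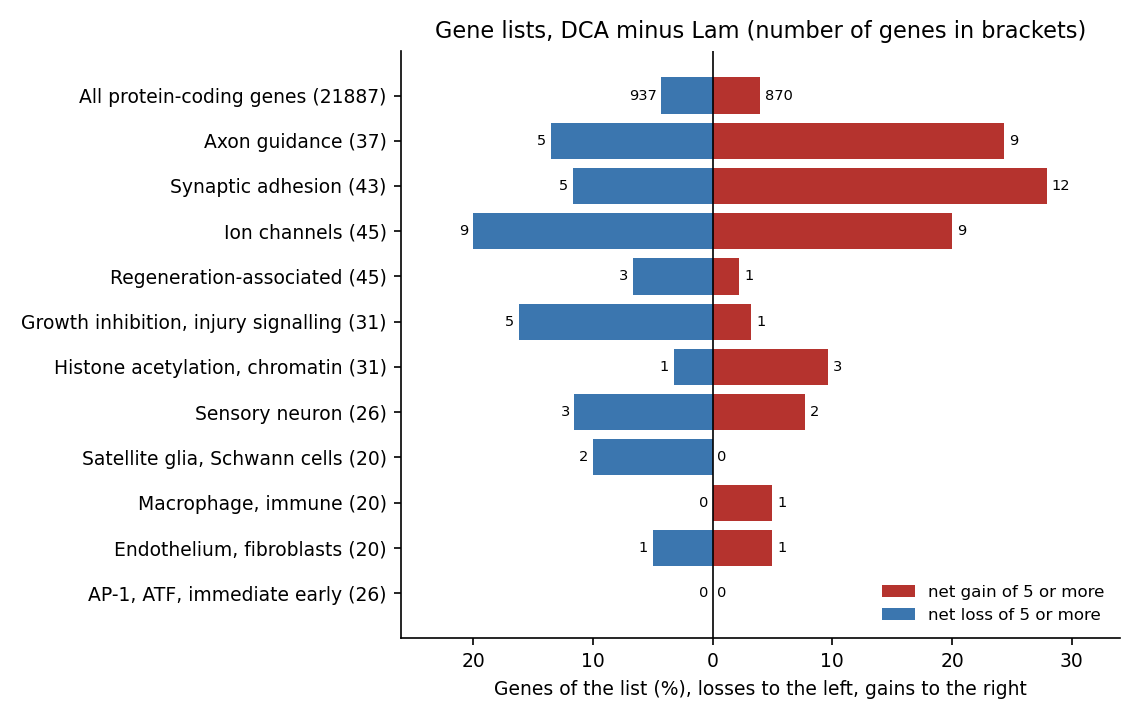
Share of each gene list (x axis, percent) with a net gain (right, red) or net loss (left, blue) of 5 or more ATAC peaks in DCA against Lam, with the count at each bar. The longest gain bars belong to the lists with the longest genes, axon guidance, synaptic adhesion and ion channels. Among losses, ion channels (20.0%) and growth inhibition (16.1%) have the longest bars. The AP-1 and ATF list had none in either direction.

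The 45 ion channel genes, with a median length of 147 kb, had 9 gains and 9 losses of 5 or more (20.0% each). Among the 17 over 200 kb, 3 gained (17.6%) and 5 lost (29.4%), beside 28.8% and 16.9% of all genes of that length, and among the 16 of 50 to 200 kb 5 gained and 3 lost. Among calcium channel subunits, Cacna1b, the N-type pore, gained 10 (40, 42, 38 and 48) and Cacna1d gained 11 (60, 68, 60 and 71), while Cacna1c lost 23 and Cacna1a, the P/Q-type pore, lost 11 (53, 70, 79 and 68). At a −log10 q of 5 or more the DCA and Lam peaks numbered 2 and 6 in Cacna1b and 8 and 6 in Cacna1d. Cacna1c then had 9 and 5, and Cacna1a 9 and 9. Cacna2d1, the auxiliary subunit that gabapentin binds, lost 13 with 21, 47, 30 and 17 peaks, the lowest value being that of DCA and the highest that of SNA. Potassium channel genes gave a loss in Kcnb2 and gains in Kcnh7 (27, 17, 17 and 23) and Kcna2 (6, 4, 3 and 8). Of the sodium channels, Scn10a, which encodes Nav1.8 of pain-sensing neurons, gained 5 (17, 29, 29 and 34), and its neighbour Scn11a lost 5 (12, 16, 18 and 13). Hcn2, a pacemaker channel, held 6, 6, 12 and 6.

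The 45 regeneration-associated genes gave 1 gain (2.22%) and 3 losses (6.67%) of 5 or more, near the 3.97% and 4.28% of all genes, with 14 genes higher, 15 lower, 16 equal and a median net of 0. The gain was in Crebbp (chr16:4081334-4213957), the histone acetyltransferase CBP, with 15, 9, 9 and 17 peaks, so Lam and SNA were alike and DCA was next to Sham. The losses were in Cacna2d1, Stat3 and Gal. Stat3 (chr11:100886806-100939594), a transcription factor of the injury response, held 7, 20, 15 and 9, with SNA the highest and DCA near Sham. Gal (chr19:3409915-3414544), the neuropeptide galanin, held 3, 5, 6 and 1.

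The other genes most used as markers of the axotomy response differed by at most 2 peaks between DCA and Lam. Atf3, a transcription factor induced in injured sensory neurons, held 1, 6, 6 and 7 peaks, with Sham the only low list. Jun, its partner in AP-1, held 4, 4, 2 and 3. Sox11, a transcription factor of axon growth, held 2, 6, 1 and 2, with SNA alone high. Gap43, a growth cone protein, held 1, 8, 4 and 6, and Sprr1a, a small proline-rich protein of injured neurons, 1, 1, 0 and 2. None of the 26 AP-1, ATF and immediate early genes had a net of 5 or more in either direction, but 22 of them were up to 50 kb long, where 1.2% of all genes gained and 2.36% lost, so few or none would be called at that share. A promoter of 19 of the 20 with a window was open in each of the 4 lists.

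Among the 31 genes of growth inhibition and injury signalling, 1 gained (3.23%) and 5 lost (16.1%), beside 3.97% and 4.28% of all genes. Of the 18 that were 50 to 200 kb long, 4 lost (22.2%), against 9.38% of all genes of that length. Peaks of the list with a −log10 q of 5 or more went the other way, with 55 in Sham, 58 in Lam and 68 in DCA. Over all genes these sums were 25399, 25791 and 31073. The gain was Map3k13, the leucine zipper kinase LZK (22, 24, 18 and 24). The losses were Stat3, Klf9, a transcription factor that limits axon growth (8, 13, 12 and 7), Nmnat2, the enzyme that keeps axons alive (25, 31, 35 and 30), Osmr, a receptor of the interleukin 6 family (7, 7, 10 and 5), and Ptprf, a receptor phosphatase (18, 21, 26 and 19). At a −log10 q of 5 or more the net was 0 in Stat3 and Klf9, −1 in Osmr, 1 in Nmnat2 and 3 in Ptprf. In each of these 5 genes Lam also lay above Sham, which choosing genes by a loss from Lam favours. Of the 31 genes of histone acetylation and chromatin, 3 gained (9.68%) and 1 lost (3.23%). The gains were in Crebbp, Hdac4 (44, 53, 48 and 53) and Hdac9 (28, 30, 24 and 29), and Stag1, a cohesin subunit, lost 6 (5, 10, 13 and 7). None of the 17 up to 50 kb was called. Of the 10 of 50 to 200 kb 1 gained, beside 9.66% of all genes of that length. Of the 4 over 200 kb, 2 gained and 1 lost, beside 28.8% and 16.9%.

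Marker lists of the cells in the ganglion were read beside the 3.97% of all genes with a gain and 4.28% with a loss. Of 26 sensory neuron genes, 9 were higher and 14 lower, with 2 gains (7.69%) and 3 losses (11.5%) of 5 or more and summed peak numbers of 285, 356, 354 and 335. Their peaks with a −log10 q of 5 or more went the other way, with 40 in Sham, 31 in Lam and 52 in DCA, beside 25399, 25791 and 31073 summed over all genes. Ntrk2, the receptor of brain-derived neurotrophic factor, held 28, 34, 32 and 41, and Ntrk3, the receptor of neurotrophin 3, 54, 78, 68 and 57. Runx3, the transcription factor of proprioceptive neurons, held 12, 17, 22 and 13. Of 20 satellite glia and Schwann cell genes, 8 were higher and 10 lower, with losses in Gfap (6, 5, 11 and 6) and Mbp (29, 28, 29 and 24) and summed numbers of 136, 148, 154 and 135. Of 20 macrophage and immune genes, 10 were higher and 7 lower, with a gain in Itgam (10, 6, 5 and 12) and sums of 91, 107, 83 and 93. The sums of these lists differed between DCA and Lam in both directions, and their part in the results above was not tested.

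The central and the peripheral axotomy could be set side by side, since DCA minus Lam and SNA minus Sham have no list in common. Of the 870 genes with a gain of 5 or more in DCA, 274 had one in SNA, 31.5% of the DCA gains and 13.8% of the 1980 SNA gains, and 74 had a loss there, 8.51% of the DCA gains and 20.4% of the 363 SNA losses. Of the 937 genes with a loss in DCA, 301 had a gain in SNA (32.1% and 15.2%) and 41 a loss (4.38% and 11.3%). Over all genes 9.05% had a gain in SNA and 1.66% a loss, but long genes are called more often in both. Among genes over 200 kb, a gain in SNA was found in 38.6% of all, in 44.6% of those with a gain in DCA and in 58.7% of those with a loss in DCA. The same order held in genes of 50 to 200 kb, at 22.6% of all, 35.3% and 41.8%, and in genes up to 50 kb, at 4.17%, 5.91% and 12.0%. In each length class, a gain in SNA was thus found in a larger share of the genes with a loss in DCA than of those with a gain. The 2 shares were not compared by a test.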

How the data were processed

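The ATAC lists of DCA, Lam, Sham and SNA were used, with the histone mark lists as a further readout at the same places. Per the labels each list pools all samples of a surgery, and per the submitters' processing notes the build is mm10. The aligner, the caller and its settings, and why some ranked peaks are missing, are not given in the sources used here. The authors' deposited values per peak are an integer display score, which was not used, a linear fold enrichment over local background, and −log10 p and −log10 q. They describe, rank or filter peaks within their own list only. Each interval listed for several summits was kept once, with its most significant summit. The lists hold no read totals, so depth is unknown. The background pile-up was recovered by taking fold as (reads + 1)/(background + 1) and p as the Poisson tail, which matched the deposited −log10 p within 0.003 for 99.997 to 99.998% of ATAC peaks.

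Peaks overlapping by 1 bp were shared. Net peaks per gene used a RefSeq table of 21887 protein-coding genes and promoters a RefSeq table of 21263 windows, both of GRCm38.p6, the assembly behind mm10. The gene table gives no exons, so positions within genes (exon, intron or UTR) are not stated, and no genome was used, so motifs were searched in promoter windows in place of 200 bases around summits. Genes named are the 10 largest gains and losses, the 5 largest of each among genes up to 50 kb, list members with a net of 4 or more in either direction, from which a part is described, and Atf3, Jun, Sox11, Sprr1a, Gal and Gap43. Genes set against both controls, list members' promoters and the 2-axotomy comparison were named after their values were seen. The comparison and the gene lists were chosen with earlier results of these data known. Lists of liver, muscle and epithelium (19 genes, 7 higher and 10 lower), central neurons and glia (15, 7 and 4) and vessels and fibroblasts (20, 9 and 7) served as further markers. Some genes that this rule names are not reported here. The labels give no batch or date. Overlap counting was checked on simulated intervals. Python 3.11.15, pandas 2.3.3, numpy 2.4.6 and scipy 1.17.1 were used.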

Additional observations from a re-analysis of the deposited data

Results flagged for a closer look

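In 8 genes of the gene lists the net peaks of DCA minus Lam and of SNA minus Sham were 10 or more in opposite directions. The difference between the 2 axotomies was not tested, since each surgery is 1 pooled list, and all 8 are long genes, in which large differences of either sign are common.

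Lower after DCA and higher after SNA were Csmd1 (a net of −34 against 18), Opcml (−17 against 30), Cacna2d1 (−13 against 26), Cacna1a (−11 against 17) and Ntrk3 (−11 against 24). Higher after DCA and lower after SNA were Dcc (12 against −14), Lsamp (12 against −34) and Cntn4 (12 against −10). In 7 of the 8, DCA and Sham were closer to each other than Lam and Sham were. The Lam and Sham values both entered the choice of these genes, so this count is not independent of it. Dcc is the plainest case, with 22 peaks in Sham, 20 in DCA and 8 in both Lam and SNA. In Csmd1 the DCA list stood apart, with 164 peaks against 191 to 209 in the other lists. With both lists at a −log10 q of 5 or more, the net turned to a gain of 4 in Csmd1 and in Ntrk3, and to −2 in Lsamp. It was 0 in Opcml and Cacna1a. The direction was kept in Cacna2d1 (−1), Dcc (1) and Cntn4 (2), on few peaks.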

How the results depend on the processing

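No paired analysis was possible because each surgery is deposited as 1 list pooled over its 3 samples, and for the same reason no sample could be left out. A reciprocal overlap of 50% raised the unmatched shares to 69.9% for DCA against Lam, 68.7% for Lam against DCA, 71.2% for Lam against Sham and 70.4% for Sham against Lam. In that order, counting peaks within 1 kb as shared gave 44.6%, 41.5%, 45.4% and 45.3%. Equal list sizes gave 57.2%, 56.5%, 58.8% and 59.0%. Both lists at a −log10 q of 5 or more gave 48.2%, 33.4%, 38.4% and 39.3%, and that limit on the queried list alone 19.2%, 13.0%, 15.1% and 15.4%. A fold of 3 or more in both lists, chosen after seeing the data, gave 19.1%, 13.4%, 13.8% and 22.4%.

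The counts of genes with a net gain or loss of 5 or more were 870 and 937 for DCA minus Lam and 1538 and 601 for Lam minus Sham. With 50 kb on either side they were 2200, 2594, 4700 and 1317, and with every summit counted 2163, 1835, 3155 and 1282. Adding a limit of 2-fold gave 241, 214, 436 and 192, and a −log10 q of 5 or more gave 79, 2, 20 and 14. The gene body alone gave 629, 581, 993 and 463, and equal list sizes 675, 1100, 1358 and 671, so that DCA minus Lam had more gains than losses in the first and fewer in the second. Chosen after seeing the data, DCA above both controls gave 391, DCA below both 150, and DCA minus Sham 1365 gains and 514 losses. With a peak of −log10 q of 5 or more against the whole other list, 245 promoters were gained and 108 lost, and with both lists at that limit 1232 and 545, against 1069 and 775.

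Equal list sizes and counting every summit left each of the 30 genes ranked by size of change with the same direction. At a −log10 q of 5 or more the net reversed to a gain of 10 in Camta1, 4 in Csmd1 and Cacna1c, 3 in Agap1, 2 in Rbms3, Erc2 and Slc44a2 and 1 in Serac1. Fewer peaks enter at that limit, 26768 in DCA and 20850 in Lam.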
